A study of Mus musculus with 72 samples.

Results

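The mitotic cell cycle genes described here are a set of 38 protein-coding genes whose products drive or carry out cell division, followed in mouse liver and lung 48 h after whole body X-ray irradiation. They were chosen by name, as genes of mitosis, and found on the arrays through the RefSeq transcript that each probe was designed against. All 38 had at least 1 probe, of the 23787 genes that could be named in this way. Female C57BL/6 J mice 6 to 8 weeks old were exposed once, in plastic containers and at 1.05 Gy/min, to 1 of 5 surface doses from 1 to 12 Gy (1, 2, 4, 8, 12). The controls (0 Gy) were sham irradiated. Each of the 6 dose groups held 3 mice, so that 18 liver and 18 lung arrays were compared. Liver and lung arrays carry the same mouse numbers, and the labels do not state that a number stands for 1 animal in both organs.

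Cells that divide switch on these genes together late in the cell cycle. Cdk1 with its cyclins starts mitosis, the Aurora and Polo-like kinases build the spindle, kinetochore proteins hold chromosomes to it, and the spindle checkpoint delays separation until every chromosome is attached. Cdc20 then directs the anaphase-promoting complex, for which Ube2c supplies ubiquitin, to destroy the cyclins, and Cep55, Prc1 and Ect2 help to cut the cell apart. In resting tissue most of these genes are kept off by the DREAM complex, and radiation leads to p53 activity, p21 (Cdkn1a) and arrest. Adult liver and lung hold few dividing cells, among them blood cells that pass through.

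A level in this text is the log2 intensity of 1 probe, background-corrected and quantile-normalized within a tissue, and a change is a difference of such levels between dose groups. A gene was called lower or higher when its log2 change exceeded 1 in size with a Benjamini-Hochberg adjusted p under 0.05 in limma, over the probes that stood above background on 1 or more of a tissue's arrays. The 5 comparisons with 0 Gy in a tissue share the same 3 controls. Signal was modest: 46.1 to 54.0% of spots were above background on the liver arrays, 59.2 to 64.0% on 14 of the lung arrays and 54.1 to 54.8% on the 4 lung arrays of a slide scanned in a later session. Hepatocyte markers (14 of 14) were above background on all 18 liver arrays, and alveolar type 2 markers (10 of 10) on all 18 lung arrays. In whole tissue, fewer dividing cells and less RNA per cell cannot be told apart.

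In liver mitotic genes were called lower from 2 Gy upwards, while their median was already lower at 1 Gy. Of the 38, none was called lower at 1 Gy, 8 at 2 Gy, 19 at 4 Gy, 24 at 8 Gy and 23 at 12 Gy. Over all probes tested, 0.0209% were called lower at 1 Gy, 0.164% at 2 Gy, 0.623% at 4 Gy, 1.37% at 8 Gy and 1.33% at 12 Gy. The median change of the 38 was -0.94, -1.11, -1.24, -1.27 and -1.36 at the 5 doses in that order, while the medians over all probes were 0.0101, -0.0032, 0.0069, 0.0048 and 0.0089. With genes that were above background in only 1 of the 2 groups compared set at their bound, the medians were -0.91, -1.13, -1.15, -1.27 and -1.24 over 37 genes. Cep55 alone was called higher, at 2, 4, 8 and 12 Gy, where 0.0808, 0.321, 0.839 and 0.73% of all probes were. The liver arrays lay on 3 slides, with 0 and 1 Gy on the first, 4 and 8 Gy on the second, and 2 and 12 Gy each across a pair. Once slide was a term of the model the medians at 2 to 12 Gy were -1.04, -1.07, -1.23 and -1.20, but 1 gene, Melk, was called lower at each of these doses. The share of all probes called in that fit was not counted.

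In lung the mitotic genes fell as well. Plk1 was called lower at 1 Gy, and 10, 24, 26 and 24 of the 38 at 2, 4, 8 and 12 Gy. The share of all lung probes called lower was 0.0114% at 1 Gy, 0.373% at 2 Gy, 1.22% at 4 Gy, 1.99% at 8 Gy and 4.3% at 12 Gy. Median changes were -1.0, -1.28, -1.55, -1.53 and -1.31, against 0.0061, 0.0105, 0.0365, 0.0389 and 0.0948 over all probes. No member was called higher at any dose, where 5, 31, 105, 231 and 1331 of 43979 probes were (43976 at 4 Gy). In lung 0 and 1 Gy shared a slide, 2 and 4 Gy and 2 mice at 8 Gy lay on another, and the third 8 Gy mouse lay with 12 Gy on the slide scanned later. Dose and slide could not be told apart at 2 to 12 Gy. With slide as a random block, 0, 10, 16 and 11 genes were called lower at these doses, with medians of -1.26, -1.57, -1.52 and -1.31. The share of all probes called in that fit was not counted. Without the slide scanned later, 58 of the 61 lung calls at 1 to 8 Gy stood.

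**Figure D1:**
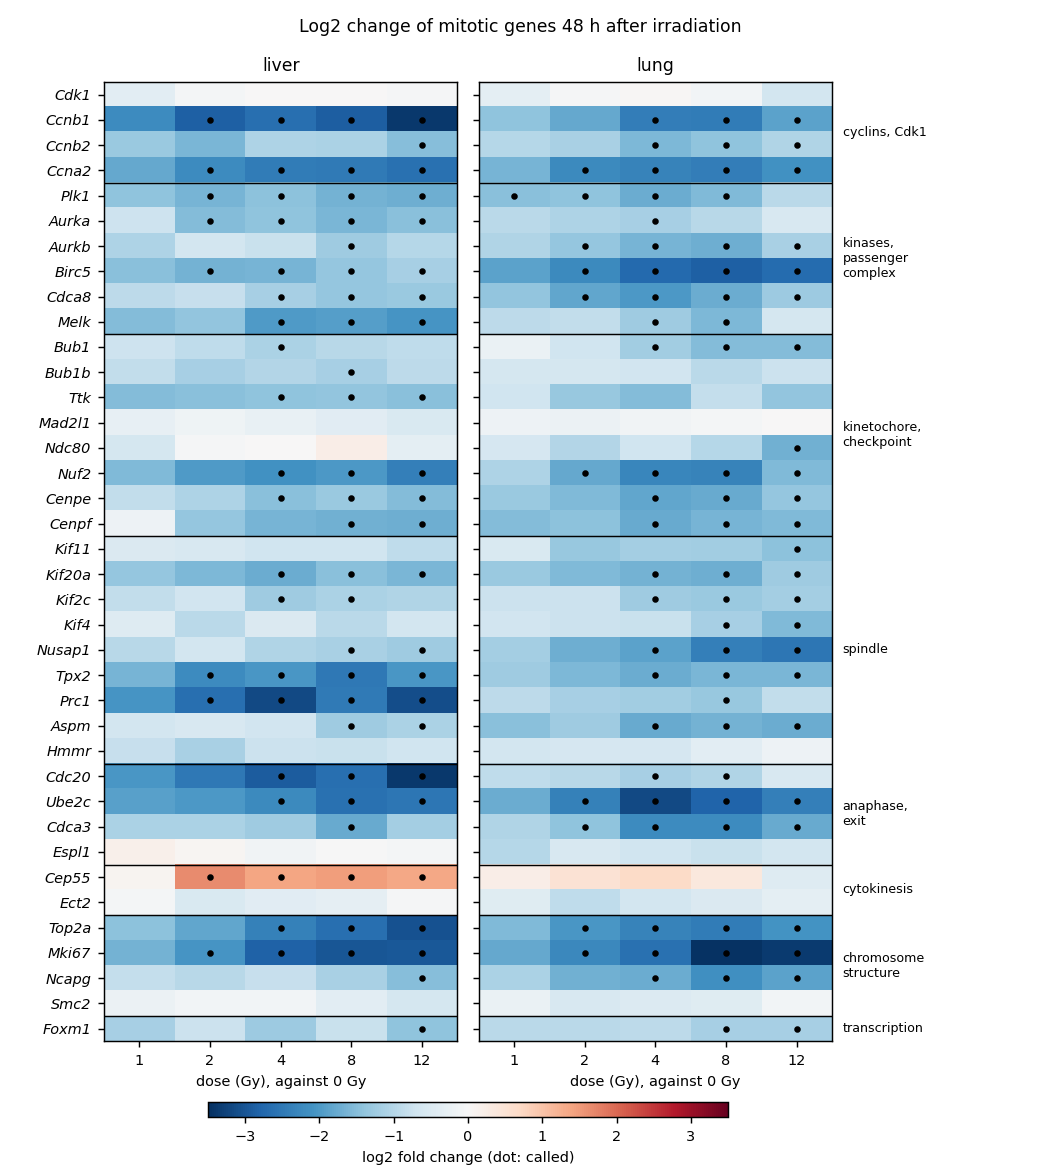
Log2 change of the main probe of each of the 38 mitotic genes against 0 Gy, in liver (left) and lung (right) at 1, 2, 4, 8 Gy and 12 Gy, grouped by role, with a dot where the gene was called. Blue is lower and red higher: most rows are blue in both tissues from 1 Gy, dots begin at 2 Gy in liver and at 1 Gy in lung, and Cep55 is the red row in liver.

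Over both tissues, 26 genes were called lower at 1 dose or more in each, as were 0.818% of the 34965 probes tested in both. Bub1b and Ttk were called in liver and not in lung, and Kif11, Kif4 and Ndc80 in lung and not in liver. None of these 5 differed between tissues in a test of the difference. Ccna2, Ube2c, Mki67, Birc5 and Top2a, from different steps of the cell cycle, were among the genes called at 3 or more doses in both tissues. The other 7 (Cdk1, Cep55, Ect2, Espl1, Hmmr, Mad2l1 and Smc2) were not called lower at any dose in either tissue by their main probe, the brightest of each gene. In liver 10, 14, 15, 16 and 13 genes at 1, 2, 4, 8 Gy and 12 Gy were above background in only 1 of the 2 groups compared. For 1, 1, 1, 0 and 1 further genes neither group was. Genes called lower whose irradiated group was above background on no array are given below as falling at least so many fold. The bound sets the mean of the controls against the higher, per array, of the probe's own value and the lowest value well above background.

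Most of the median fall was present at 1 Gy, although most calls came at higher doses. At 1 Gy 36 genes in liver and 37 in lung had a change below 0, against 48.1% and 49% of all probes. All 3 mice at 1 Gy were below all 3 controls for 19 of 38 genes in liver, against 6.25% of all probes, and for 26 in lung, against 6.01%. Without adjustment, 30 genes in liver and 29 in lung had a p under 0.05 and a lower level at 1 Gy, against 3.35% and 3.12% of all probes. From each dose to the next no member was called lower or higher in either tissue, with medians of -0.18, -0.14, -0.03 and -0.07 in liver and -0.27, -0.19, -0.04 and 0.19 in lung. Few probes of any kind were called at these steps. In liver 2 of 38362 were called higher from 4 to 8 Gy, and 0 were called otherwise. In lung 1, 0, 5 and 70 of 43976 to 43979 were called lower, and 0, 0, 0 and 10 higher. The lack of calls thus says little about the members. Between 1 and 12 Gy, Top2a was called lower in liver (at least 2.71-fold, adjusted p = 0.0411 in limma), where 0.62% of probes were. In lung 4 genes were called lower from 1 to 12 Gy, where 4.43% of probes were: Bub1 by 1.31 (SE 0.28), Nusap1 by 1.34 (SE 0.42), Mki67 by 1.54 (SE 0.42), and Ndc80 at least 1.41-fold.

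As a straight line in dose, 9 genes in liver (1.14% of probes) and 11 in lung (4.35% of probes) were called lower. In liver these were Ccnb1, Melk, Cenpe, Cenpf, Cdc20, Ube2c, Top2a, Mki67 and Ncapg. In lung they were Birc5, Bub1, Ndc80, Kif11, Kif4, Nusap1, Aspm, Cdca3, Top2a, Mki67 and Ncapg. Mki67 had the steepest line in lung, at -2.67 over 12 Gy (SE 0.53), and Top2a in liver, at -2.38 (SE 0.46). Against log2 of the dose plus 1, which bends the line, 19 and 22 genes were called lower. With slide as a term of the model no linear trend of a member was called in either tissue. The median slope over 12 Gy was then -0.73 in liver and -0.53 in lung, against -0.85 and -0.77 without that term.

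The controls varied more than any irradiated group, and in the same order in both organs. The summed level of the 38 genes, as a percent of the 0 Gy mean, was 51.0, 103 and 146 in liver of control mice 1, 11 and 21, and 59.2, 78.8 and 162 in lung. At 8 Gy the 3 mice read 35.9, 36.6 and 37.2 in liver and 30.4, 34.6 and 34.7 in lung. At 1 Gy they read 42.5, 53.2 and 35.3 in liver and 42.9, 50.4 and 38.1 in lung. Control mouse 1 was thus nearest to the irradiated mice in both organs, and in liver the highest 1 Gy mouse overlapped with it. These sums include the signal of probes near background, which sets a floor. Leaving out control mouse 1 raised the count called lower at 1 Gy to 13 in liver and 5 in lung. Leaving out control mouse 21 lowered the count at 8 Gy to 13 in liver and 19 in lung. The share of all probes called in these fits was not counted.

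**Figure D2:**
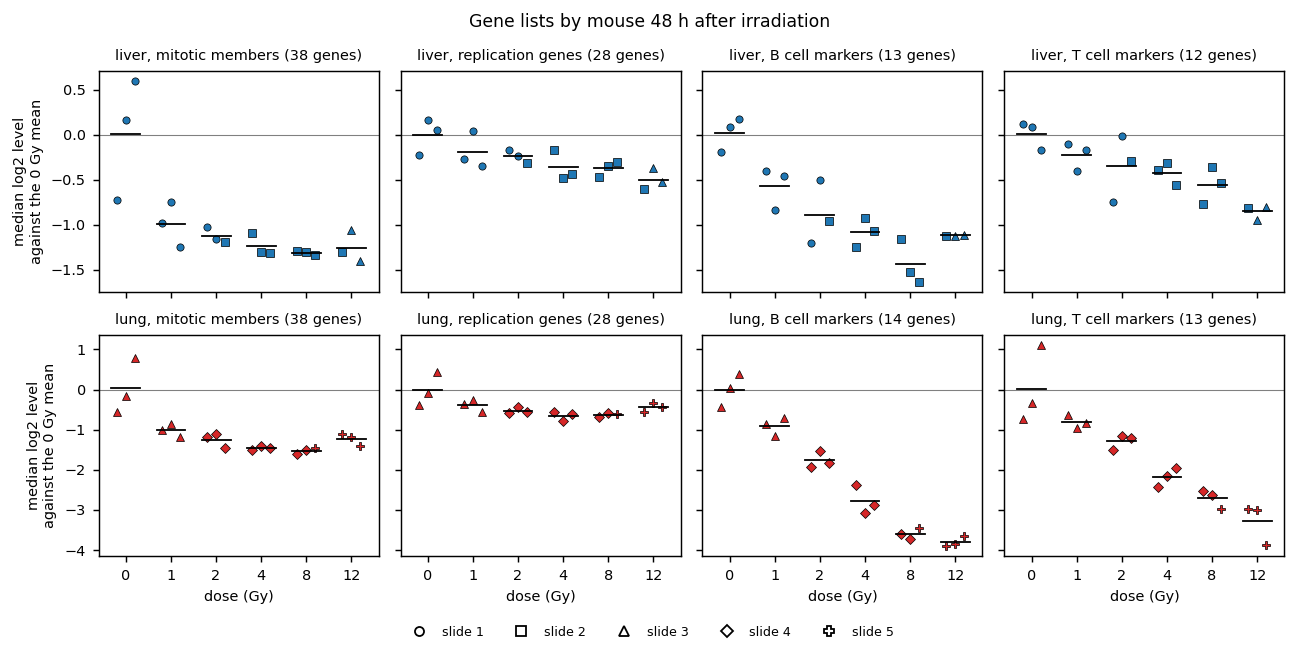
Median log2 level of a gene list in each mouse against the mean of the 0 Gy mice (y axis) by dose in Gy (x axis), in liver (top) and lung (bottom); symbols give the slide, bars the group mean. The 38 mitotic genes drop by about 1 from 0 to 1 Gy and then level off in both tissues, with control mice 1, 11 and 21 (left to right) far apart. B and T cell markers in lung go on falling with dose.

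Genes of this kind share promoter sequence motifs. The cell cycle genes homology region (CHR; TTTGAA or TTCGAA) is bound by the DREAM and MuvB complexes, CCAAT by NF-Y, and TTTCGCG or GGCGGGA by E2F factors. Of the 38 genes, 33 have a RefSeq promoter window, from 250 bases before to 50 after the start (GRCm38.p6). Aurkb, Ccna2, Foxm1, Kif20a and Tpx2 were not matched. A CHR on either strand was in 26 of the 33 windows (78.8%, against 19.4% of 27025 genes), and CCAAT in 25 (75.8% against 37.9%). Both stood together in 23 (69.7% against 7.7%). An E2F motif was in 10 (30.3% against 12.1%). The first 3 windows below belong to genes that fell in both tissues and hold both motifs, and the other 3 to genes with another makeup or response. Motifs are in capitals, as they or their reverse complement read on the sense strand.
Ccnb2, chr9:70421505-70421804, minus strand: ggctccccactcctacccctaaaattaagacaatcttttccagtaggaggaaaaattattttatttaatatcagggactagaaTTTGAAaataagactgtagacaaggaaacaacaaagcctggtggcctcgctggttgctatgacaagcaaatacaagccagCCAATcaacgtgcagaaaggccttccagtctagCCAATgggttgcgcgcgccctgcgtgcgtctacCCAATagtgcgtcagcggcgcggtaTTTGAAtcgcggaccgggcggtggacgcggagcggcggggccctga
Cdc20, chr4:118437294-118437593, minus strand: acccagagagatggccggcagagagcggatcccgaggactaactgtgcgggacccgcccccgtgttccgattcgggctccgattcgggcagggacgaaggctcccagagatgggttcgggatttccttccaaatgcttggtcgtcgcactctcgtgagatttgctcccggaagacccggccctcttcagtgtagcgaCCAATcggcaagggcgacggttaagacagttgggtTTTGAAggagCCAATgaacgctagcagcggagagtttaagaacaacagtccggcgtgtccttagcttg
Mki67, chr7:135716330-135716629, minus strand: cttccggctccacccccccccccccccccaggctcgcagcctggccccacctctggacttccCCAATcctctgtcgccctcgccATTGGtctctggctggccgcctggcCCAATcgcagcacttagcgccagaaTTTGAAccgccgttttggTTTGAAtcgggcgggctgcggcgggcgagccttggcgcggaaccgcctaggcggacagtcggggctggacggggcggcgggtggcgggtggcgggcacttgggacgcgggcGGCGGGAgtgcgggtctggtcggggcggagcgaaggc
Birc5, chr11:117848987-117849286, plus strand: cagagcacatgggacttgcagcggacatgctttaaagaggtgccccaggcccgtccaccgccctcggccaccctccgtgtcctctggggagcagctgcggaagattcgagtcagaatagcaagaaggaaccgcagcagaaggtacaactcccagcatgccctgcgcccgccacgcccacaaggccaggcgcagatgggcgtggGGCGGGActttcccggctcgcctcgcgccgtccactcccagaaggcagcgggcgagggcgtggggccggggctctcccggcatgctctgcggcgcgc
Cep55, chr19:38054734-38055033, plus strand: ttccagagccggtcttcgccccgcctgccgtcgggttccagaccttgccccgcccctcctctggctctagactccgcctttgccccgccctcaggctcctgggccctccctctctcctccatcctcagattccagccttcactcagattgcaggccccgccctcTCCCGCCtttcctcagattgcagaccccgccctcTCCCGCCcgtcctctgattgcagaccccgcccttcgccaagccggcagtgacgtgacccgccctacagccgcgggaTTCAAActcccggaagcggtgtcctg
Mad2l1, chr6:66534971-66535270, plus strand: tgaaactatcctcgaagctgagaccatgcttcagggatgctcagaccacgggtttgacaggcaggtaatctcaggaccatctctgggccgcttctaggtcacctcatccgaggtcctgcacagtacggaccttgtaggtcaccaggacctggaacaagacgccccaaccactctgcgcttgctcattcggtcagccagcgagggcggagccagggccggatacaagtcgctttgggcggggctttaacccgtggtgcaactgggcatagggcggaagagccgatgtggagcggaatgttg
Birc5 fell in both tissues with 1 E2F motif and neither CHR nor CCAAT in this window, while Cep55, which rose in liver, has 1 CHR and 2 E2F motifs. Mad2l1, which was not called, holds none of the motifs searched, but nor do Melk, Nuf2 and Nusap1, which were called lower. Cdk1 has 2 CHR and 3 CCAAT. A match is a description of letters and not a bound site.

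Values by mouse follow, in the order of the mouse numbers: 1, 11 and 21 at 0 Gy, 2, 12 and 22 at 1 Gy, 3, 13 and 23 at 2 Gy, 4, 14 and 24 at 4 Gy, 5, 15 and 25 at 8 Gy, and 6, 16 and 26 at 12 Gy. In each role they are given for the members with the highest mean signal over all arrays. Changes are against 0 Gy.

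The cyclins fell in both tissues, 3 of 3 at 12 Gy. Ccna2, cyclin A2, which carries cells through S phase into mitosis, had liver levels of 6.61, 8.02 and 8.61 at 0 Gy, 6.05, 6.60 and 5.27 at 1 Gy, 5.84, 5.56 and 5.22 at 2 Gy, 5.79, 5.23 and 4.84 at 4 Gy, 5.19, 5.22 and 5.42 at 8 Gy, and 5.04, 5.23 and 5.18 at 12 Gy. Every irradiated liver was below every control. Its lung levels were 8.97, 9.32 and 10.65 at 0 Gy, 8.01, 8.36 and 7.66 at 1 Gy, 7.48, 7.77 and 7.02 at 2 Gy, 7.21, 7.62 and 7.08 at 4 Gy, 7.15, 7.41 and 7.15 at 8 Gy, and 7.83, 7.68 and 7.06 at 12 Gy, again with no overlap. Ccna2 fell 4.62-fold in liver and 4.67-fold in lung at 2 Gy, and 6.06-fold (adjusted p = 0.00174) and 4.36-fold (adjusted p = 0.000989) at 12 Gy.

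Ccnb2, cyclin B2, a partner of Cdk1, read 6.97, 8.46 and 9.07 in control livers, 6.70, 7.19 and 6.66 at 1 Gy, 6.29, 6.48 and 6.90 at 2 Gy, 7.26, 6.92 and 7.06 at 4 Gy, 6.90, 7.02 and 7.20 at 8 Gy, and 6.76, 6.54 and 6.72 at 12 Gy. Control mouse 1 lay among the irradiated mice, and only 12 Gy was called (-1.49, SE 0.37, adjusted p = 0.0238). In lung Ccnb2 read 8.63, 9.21 and 10.44 at 0 Gy, 8.53, 8.49 and 8.26 at 1 Gy, 8.14, 8.56 and 8.19 at 2 Gy, 7.69, 8.00 and 7.88 at 4 Gy, 7.81, 8.02 and 8.26 at 8 Gy, and 8.32, 8.70 and 8.13 at 12 Gy. It was called at 4, 8 and 12 Gy, lowest at 4 Gy (-1.57, SE 0.32, adjusted p = 0.0163), and at 12 Gy 1 mouse was above the lowest control. Ccnb1, cyclin B1, was above background in 3 control and 1 irradiated liver and fell there at least 7.22-fold at 2 Gy and at least 7.94-fold at 12 Gy.

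Cdk1, the kinase these cyclins activate, was not called by its main probe. That probe read 6.23, 6.55 and 6.37 in control livers and 6.26, 6.38 and 6.38 at 12 Gy. In lung it read 6.61, 6.93 and 7.09 in controls and 6.34, 6.22 and 6.17 at 12 Gy, a change of -0.63 (SE 0.20, adjusted p = 0.0344) that missed the threshold of size. A dimmer second Cdk1 probe disagreed: in lung it was called lower by 1.80 (SE 0.32) at 4 Gy, 1.68 at 8 Gy and 1.24 at 12 Gy. In liver that probe changed by between -0.49 and -1.14 at the 5 doses and was not called.

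Among the kinases and the chromosomal passenger complex, all 6 genes were called lower at 8 Gy in liver, and all 6 at 4 Gy in lung. Birc5, survivin, the passenger subunit that brings Aurora B to the centromere, read 8.34, 9.37 and 9.86 in control livers, 7.74, 8.02 and 7.42 at 1 Gy, 7.46, 7.69 and 7.47 at 2 Gy, 7.55, 7.67 and 7.43 at 4 Gy, 7.89, 7.50 and 8.16 at 8 Gy, and 7.89, 8.18 and 8.06 at 12 Gy. No irradiated liver reached a control, and the lowest means were at 2 and 4 Gy. In lung Birc5 read 9.50, 9.93 and 11.42 at 0 Gy, 8.31, 8.67 and 8.28 at 1 Gy, 8.13, 8.30 and 7.68 at 2 Gy, 7.64, 7.56 and 7.51 at 4 Gy, 7.44, 7.48 and 7.31 at 8 Gy, and 8.18, 7.79 and 6.83 at 12 Gy. The fall was 3.15-fold in liver at 2 Gy (adjusted p = 0.0208) and 7.33-fold in lung at 8 Gy (adjusted p = 0.000308).

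Cdca8, borealin, another passenger subunit, read 7.21, 7.46 and 8.06 in control livers, 6.59, 6.86 and 6.55 at 1 Gy, 7.12, 6.67 and 6.53 at 2 Gy, 6.46, 6.37 and 6.43 at 4 Gy, 6.27, 6.14 and 6.23 at 8 Gy, and 6.01, 6.65 and 6.14 at 12 Gy. Its lung levels were 8.18, 8.43 and 9.61 at 0 Gy, 7.32, 7.61 and 7.17 at 1 Gy, 6.88, 7.14 and 6.74 at 2 Gy, 6.85, 6.70 and 6.60 at 4 Gy, 6.70, 7.04 and 7.30 at 8 Gy, and 7.74, 7.57 and 7.07 at 12 Gy. Controls and irradiated mice did not overlap in either tissue. Its change in lung was -2.02 (SE 0.30) at 4 Gy and -1.28 (SE 0.30) at 12 Gy.

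Plk1, the Polo-like kinase of spindle assembly, was the member called at 1 Gy in lung. It read 8.13, 8.04 and 8.71 in control lungs, 6.77, 6.99 and 6.71 at 1 Gy, 7.01, 6.93 and 6.69 at 2 Gy, 6.76, 6.54 and 6.37 at 4 Gy, 6.73, 6.68 and 6.84 at 8 Gy, and 7.45, 7.43 and 7.16 at 12 Gy. No irradiated lung reached a control, and the lowest mean was at 4 Gy. The change was -1.47 (SE 0.18, adjusted p = 0.00456) at 1 Gy and -1.74 (SE 0.18, adjusted p = 4.83e-05) at 4 Gy, and at 12 Gy -0.95 (adjusted p = 0.00228), short of the threshold of size. Aurkb, Aurora B, fell at least 2.13-fold in liver at 8 Gy and at least 3.11-fold in lung at 4 Gy, and Aurka, the centrosomal Aurora kinase, by 1.60 (SE 0.30) and 1.16 (SE 0.26) at the same doses. Melk, a kinase found in dividing cells, was above background in 2 of 3 control livers and on no irradiated liver array, where it fell at least 3.31-fold at 4 Gy. With slide as a term of the model it was called at 2, 4, 8 and 12 Gy (adjusted p = 0.0445, 0.0472, 0.027 and 0.0315 in limma).

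At the kinetochore and the spindle checkpoint the response was mixed. Cenpe, the kinesin that carries chromosomes to the spindle equator, read 5.69, 6.58 and 7.06 in control livers, 5.75, 5.46 and 5.58 at 1 Gy, 5.70, 5.41 and 5.00 at 2 Gy, 5.02, 5.07 and 4.88 at 4 Gy, 4.61, 5.74 and 5.12 at 8 Gy, and 5.00, 4.86 and 4.87 at 12 Gy. Irradiated livers at 1, 2 and 8 Gy (5.75, 5.70 and 5.74) read above control mouse 1 (5.69). From 4 Gy on, 1 irradiated liver of 9 was well above background, and the fall was at least 2.73-fold at 4 Gy and at least 2.90-fold at 12 Gy. In lung Cenpe read 7.98, 7.89 and 9.30 at 0 Gy, 7.31, 7.32 and 6.60 at 1 Gy, 6.86, 7.24 and 6.44 at 2 Gy, 6.40, 6.84 and 6.42 at 4 Gy, 6.27, 6.81 and 6.79 at 8 Gy, and 7.28, 7.12 and 6.73 at 12 Gy. All 15 irradiated lungs were below the controls, with a change of -1.83 (SE 0.34, adjusted p = 0.00711) at 4 Gy.

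Mad2l1, the checkpoint protein that holds back Cdc20, did not follow. It read 8.07, 8.67 and 8.98 in control livers, 8.17, 8.41 and 8.28 at 1 Gy, 8.48, 8.54 and 8.26 at 2 Gy, 8.38, 8.46 and 8.07 at 4 Gy, 8.11, 8.13 and 8.25 at 8 Gy, and 8.04, 8.19 and 7.90 at 12 Gy. In lung it read 9.39, 9.84 and 10.48 at 0 Gy, 9.74, 9.93 and 9.49 at 1 Gy, 9.41, 9.98 and 9.69 at 2 Gy, 9.68, 9.73 and 9.98 at 4 Gy, 9.63, 9.85 and 10.01 at 8 Gy, and 9.62, 10.35 and 9.76 at 12 Gy. Controls and irradiated mice overlapped at every dose. The change was between -0.14 and -0.53 in liver (SE 0.19) and between -0.21 and 0.01 in lung (SE 0.26), and Mad2l1 was above background on all 36 arrays. A second Mad2l1 probe was not called either, although in liver at 8 Gy it was lower by 0.95 (SE 0.22, adjusted p = 0.0158). Bub1, a checkpoint kinase, was called in liver at 4 Gy (at least 2.15-fold), and in lung at 4, 8 and 12 Gy, by 1.23, 1.53 and 1.53 (SE 0.28). Nuf2, of the Ndc80 complex that grips microtubules, fell at least 4.33-fold in liver at 4 Gy and by 2.29 (SE 0.34) in lung, whereas its partner Ndc80 was called in lung at 12 Gy alone, at least 2.11-fold. Cenpf, an outer kinetochore protein, was called at 8 and 12 Gy in liver and at 4, 8 and 12 Gy in lung.

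Of the 9 spindle motors and microtubule binders, 6 were called lower at 8 Gy in liver and 7 in lung. Prc1, which bundles the microtubules of the central spindle, read 7.04, 8.08 and 8.60 in control livers, 5.31, 6.58 and 5.66 at 1 Gy, 6.00, 5.29 and 4.50 at 2 Gy, 4.85, 4.55 and 4.88 at 4 Gy, 4.97, 5.73 and 5.57 at 8 Gy, and 4.62, 4.86 and 4.90 at 12 Gy. It fell at least 8.87-fold at 4 Gy (adjusted p = 0.00112) and at least 8.65-fold at 12 Gy (adjusted p = 0.000454), where no liver array was above background. In lung Prc1 read 9.49, 9.84 and 11.01 at 0 Gy, 9.26, 9.42 and 8.91 at 1 Gy, 8.96, 9.11 and 8.75 at 2 Gy, 8.76, 8.84 and 9.08 at 4 Gy, 8.50, 8.67 and 9.17 at 8 Gy, and 9.27, 9.58 and 8.90 at 12 Gy. There 1 mouse at 12 Gy was above the lowest control, and 8 Gy alone was called (-1.33, SE 0.31, adjusted p = 0.0213).

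Kif20a, a kinesin of the midzone that works in cytokinesis, read 6.59, 7.99 and 8.76 in control livers, 6.35, 6.77 and 6.19 at 1 Gy, 6.39, 6.05 and 6.20 at 2 Gy, 6.07, 6.02 and 6.04 at 4 Gy, 6.36, 6.47 and 6.16 at 8 Gy, and 6.30, 6.37 and 5.87 at 12 Gy. Its lung levels were 8.00, 8.46 and 9.60 at 0 Gy, 7.29, 7.76 and 7.14 at 1 Gy, 7.20, 7.45 and 6.77 at 2 Gy, 6.94, 6.95 and 7.19 at 4 Gy, 6.73, 7.08 and 7.14 at 8 Gy, and 7.68, 7.71 and 6.95 at 12 Gy. In liver 1 mouse at 1 Gy overlapped with control mouse 1, and in lung no mouse did. The fall at 4 Gy was 3.33-fold in liver (adjusted p = 0.0201) and 3.15-fold in lung (adjusted p = 0.0135). Tpx2, which activates Aurora A on the spindle, fell at least 5.03-fold in liver at 8 Gy and by 1.74 (SE 0.36) in lung at 4 Gy. Nusap1, a microtubule bundler, changed by -1.13 (SE 0.29) in liver and -2.38 (SE 0.42) in lung at 8 Gy. Hmmr, which binds hyaluronan and spindle microtubules, was not called at any dose, with changes of -0.69 to -1.13 in liver and -0.18 to -0.63 in lung.

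**Figure D3:**
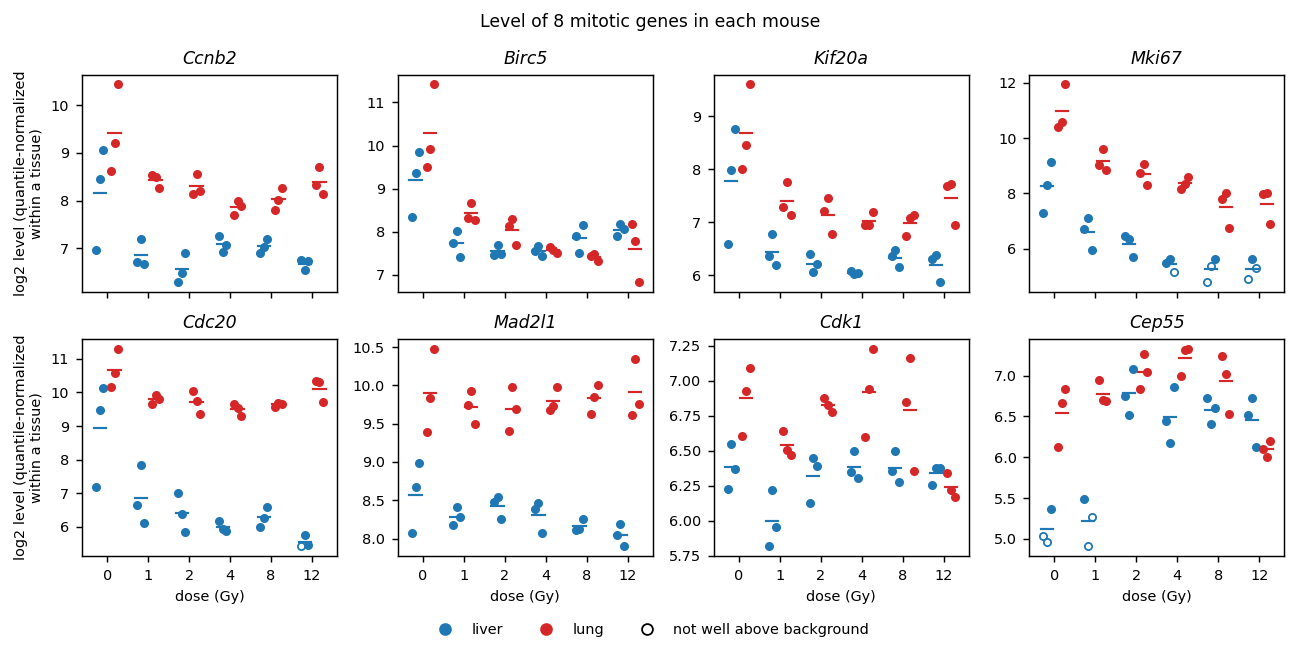
Log2 level (quantile-normalized within a tissue) of 8 mitotic genes in each mouse by dose in Gy, liver in blue and lung in red, bars the group mean, open symbols not well above background. Ccnb2, Birc5, Kif20a, Mki67 and Cdc20 lie lower after irradiation in both tissues, Mad2l1 and the main probe of Cdk1 lie near their controls, and Cep55 lies higher in liver from 2 Gy.

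For anaphase and mitotic exit, Cdc20, which switches on the anaphase-promoting complex, read 7.18, 9.48 and 10.13 in control livers, 6.64, 7.85 and 6.13 at 1 Gy, 7.02, 6.38 and 5.85 at 2 Gy, 6.19, 5.95 and 5.88 at 4 Gy, 6.00, 6.27 and 6.58 at 8 Gy, and 5.43, 5.76 and 5.46 at 12 Gy. From 2 Gy on no liver reached the controls, which were far apart. In lung Cdc20 read 10.17, 10.57 and 11.30 at 0 Gy, 9.67, 9.91 and 9.79 at 1 Gy, 10.04, 9.75 and 9.36 at 2 Gy, 9.66, 9.55 and 9.31 at 4 Gy, 9.57, 9.70 and 9.66 at 8 Gy, and 10.33, 10.30 and 9.71 at 12 Gy. In lung the 12 Gy mice again overlapped with the controls. The change at 12 Gy was 10.4-fold lower in liver (adjusted p = 0.00276) and -0.56 (SE 0.25, adjusted p = 0.124) in lung.

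Ube2c, the ubiquitin-conjugating enzyme of that complex, read 7.25, 8.58 and 8.86 in control livers, 6.29, 7.01 and 5.69 at 1 Gy, 6.32, 6.20 and 6.13 at 2 Gy, 5.76, 5.71 and 6.54 at 4 Gy, 4.97, 5.58 and 6.28 at 8 Gy, and 5.18, 6.03 and 5.87 at 12 Gy. In lung it read 8.86, 9.69 and 10.70 at 0 Gy, 7.90, 8.40 and 7.73 at 1 Gy, 7.32, 7.70 and 7.14 at 2 Gy, 7.03, 6.45 and 6.29 at 4 Gy, 7.04, 6.88 and 6.91 at 8 Gy, and 7.67, 7.52 and 6.91 at 12 Gy. No irradiated mouse reached a control in either tissue. The fall at 4 Gy was 4.69-fold in liver (adjusted p = 0.0135) and 8.94-fold in lung (adjusted p = 0.000127). Cdca3, which helps to degrade the Cdk1 inhibitor Wee1, was called at 8 Gy in liver (-1.76, SE 0.48) and at 2, 4, 8 and 12 Gy in lung (-1.42, -2.19, -2.21 and -1.76, SE 0.27). Espl1, separase, was above background on 1 liver array of 18, so that its liver values say little, and in lung it changed by -0.56 to -0.99 without a call.

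The 4 chromosome structure genes had the lowest median of the role groups in lung at every dose, from -1.33 at 1 Gy to -2.30 at 8 Gy. Mki67, the surface coat of mitotic chromosomes and a marker of proliferation, read 7.29, 8.32 and 9.14 in control livers, 6.72, 7.12 and 5.94 at 1 Gy, 6.47, 6.35 and 5.70 at 2 Gy, 5.48, 5.64 and 5.17 at 4 Gy, 4.80, 5.36 and 5.63 at 8 Gy, and 4.89, 5.64 and 5.30 at 12 Gy. In lung Mki67 read 10.39, 10.58 and 11.94 at 0 Gy, 9.03, 9.62 and 8.86 at 1 Gy, 8.75, 9.08 and 8.30 at 2 Gy, 8.15, 8.33 and 8.61 at 4 Gy, 7.79, 8.00 and 6.74 at 8 Gy, and 7.97, 8.02 and 6.88 at 12 Gy. Every irradiated mouse was below every control in both tissues, and group means were lower at each dose up to 8 Gy. No neighbouring doses were called different for Mki67, where few or no probes were called. The fall at 8 Gy was 7.94-fold in liver (adjusted p = 0.000666) and 11.0-fold in lung (adjusted p = 0.000112).

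Top2a, the topoisomerase that untangles sister chromatids, fell at least 5.15-, 6.14- and 7.31-fold in liver at 4, 8 and 12 Gy, and by 2.34, 2.44 and 2.08 (SE 0.39) in lung. A second, dimmer Top2a probe was not called in liver at any dose and was called in lung at 4, 8 and 12 Gy. Ncapg, a condensin subunit, was called at 12 Gy in liver (-1.48, SE 0.37) and at 4, 8 and 12 Gy in lung (-1.73, -2.16 and -1.87, SE 0.37). Smc2, the condensin ATPase, behaved otherwise. It read 6.95, 7.32 and 7.79 in control livers, 7.0, 7.29 and 7.15 at 1 Gy, 7.18, 7.21 and 7.37 at 2 Gy, 7.38, 7.05 and 7.34 at 4 Gy, 6.75, 7.15 and 7.09 at 8 Gy, and 6.76, 6.50 and 6.96 at 12 Gy. Its lung levels were 9.17, 9.28 and 9.61 at 0 Gy, 9.12, 9.40 and 8.84 at 1 Gy, 8.53, 9.02 and 8.81 at 2 Gy, 8.97, 8.75 and 8.91 at 4 Gy, 8.75, 8.97 and 9.07 at 8 Gy, and 9.28, 9.29 and 9.18 at 12 Gy. It was at most 0.61 lower (SE 0.19) in liver and 0.57 lower (SE 0.17) in lung, with no call. A dimmer Smc2 probe was called in lung at 12 Gy, at least 2.26-fold lower.

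Foxm1, the transcription factor that activates many of these genes in G2, was read poorly in liver, where 1 of 18 arrays was well above background. Its lung levels were 6.84, 7.21 and 7.75 at 0 Gy, 6.35, 6.39 and 6.26 at 1 Gy, 6.40, 6.37 and 6.24 at 2 Gy, 6.40, 6.39 and 6.25 at 4 Gy, 6.15, 6.37 and 5.84 at 8 Gy, and 6.22, 6.14 and 6.02 at 12 Gy. All irradiated lungs were below all controls, and the change was flat over dose: -0.94, -0.93, -0.92, -1.15 and -1.15 (SE 0.19), called at 8 and 12 Gy. In liver it was called at 12 Gy, at least 1.52-fold lower, with 1 of 3 controls above background.

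The remaining pair acts in cytokinesis, and neither was called lower at any dose. Ect2, the exchange factor that switches on RhoA at the cleavage furrow, read 7.43, 7.92 and 8.60 in control livers, 8.23, 8.07 and 7.43 at 1 Gy, 7.50, 7.50 and 7.34 at 2 Gy, 7.66, 7.54 and 7.58 at 4 Gy, 8.12, 7.85 and 7.06 at 8 Gy, and 7.67, 8.13 and 8.07 at 12 Gy. In lung it read 8.28, 8.84 and 9.97 at 0 Gy, 8.60, 8.76 and 8.46 at 1 Gy, 8.05, 8.46 and 7.93 at 2 Gy, 8.14, 8.43 and 8.61 at 4 Gy, 8.34, 8.43 and 8.81 at 8 Gy, and 8.58, 8.82 and 8.65 at 12 Gy. Controls and irradiated mice overlapped at every dose in both tissues.

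Cep55, a midbody protein that recruits the machinery of the final cut, rose in liver. It read 5.04, 4.96 and 5.36 at 0 Gy, 5.49, 4.91 and 5.27 at 1 Gy, 6.75, 6.52 and 7.08 at 2 Gy, 6.44, 6.17 and 6.86 at 4 Gy, 6.72, 6.41 and 6.60 at 8 Gy, and 6.52, 6.73 and 6.12 at 12 Gy. All 12 livers at 2 to 12 Gy were above all 6 at 0 and 1 Gy, where 2 of 6 were above background. The change was 0.10, 1.66, 1.37, 1.45 and 1.34 (SE 0.22) at 1, 2, 4, 8 Gy and 12 Gy, with adjusted p of 0.978, 0.00258, 0.00389, 0.00118 and 0.00176 in limma. Cep55 at 12 Gy exceeded 1 Gy by 1.23 (adjusted p = 0.00621), and the linear trend over dose was not called. From 1 to 2 Gy neither Cep55 nor any other liver probe was called. A step and a slope were thus not told apart. With slide as a term of the model Cep55 was called at 2 Gy (1.51, adjusted p = 0.0234) and not at 4, 8 or 12 Gy (0.92, 1.01 and 0.96). Its second probe was above background on no array, so that the rise rests on 1 probe.

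In lung Cep55 read 6.13, 6.66 and 6.84 at 0 Gy, 6.95, 6.70 and 6.69 at 1 Gy, 6.84, 7.26 and 7.05 at 2 Gy, 7.0, 7.31 and 7.33 at 4 Gy, 7.24, 7.02 and 6.53 at 8 Gy, and 6.10, 6.00 and 6.20 at 12 Gy. The 4 Gy lungs were all above the controls, but no dose was called (0.24, 0.50, 0.67, 0.38 and -0.45, SE 0.21).

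The change from 0 Gy differed between tissues for few genes. With all 36 arrays normalized and fitted together, no member differed at 1, 2 or 4 Gy, 1 at 8 Gy (0.929% of probes), 5 at 12 Gy (5.7%), and 2 in the dose trend (7.24%). Few probes of any kind differed at the lower doses. As lung minus liver, 1 of 47376 was called below 0 at 1 Gy. At 2 Gy 16 were called below and 10 above 0, and at 4 Gy 78 and 49 of 47373. As lung minus liver, the change of Cep55 differed by -1.43 at 8 Gy (SE 0.32, adjusted p = 0.0214), -2.04 at 12 Gy (SE 0.32, adjusted p = 0.000299) and -1.81 in the trend (SE 0.53, adjusted p = 0.0175). The trend of Cdc20 differed by 2.01 (SE 0.72, adjusted p = 0.0498). At 12 Gy Cdc20 (2.75, SE 0.63, adjusted p = 0.00746), Prc1 (2.62, SE 0.62, adjusted p = 0.00842) and Melk (2.11, SE 0.44, adjusted p = 0.00373) had fallen less in lung, and Birc5 (-1.71, SE 0.50, adjusted p = 0.0297) had fallen more. Prc1 and Melk were above background on no liver array at 12 Gy, which limits how far they could be seen to fall. The 12 Gy lungs lay on the slide scanned later, which held 1 other lung array, and slide and dose cannot be told apart there.

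**Figure D4:**
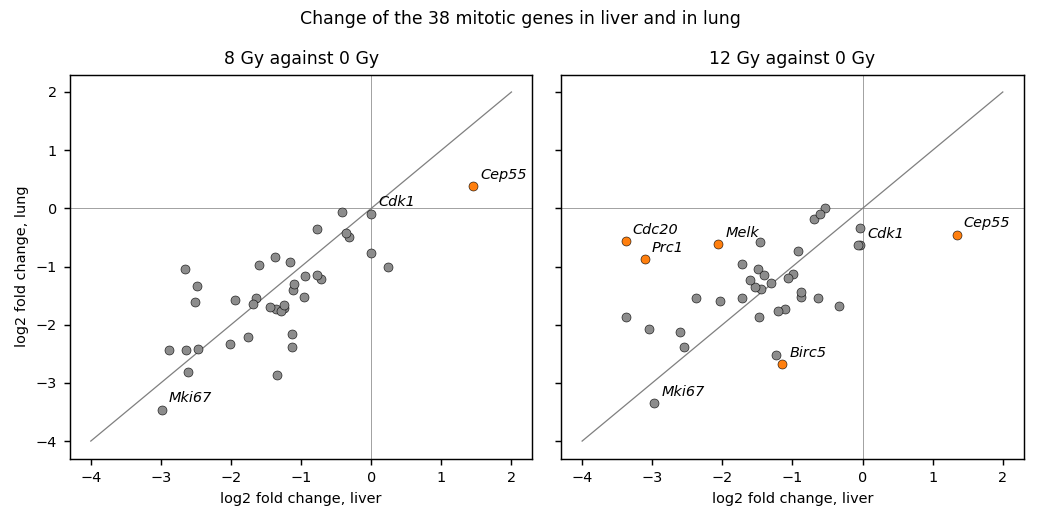
Log2 change against 0 Gy of the 38 mitotic genes in liver (x axis) and lung (y axis), at 8 Gy (left) and 12 Gy (right), with the line of equal change; orange points differed between tissues in limma. Most points lie in the lower left, lower in both tissues, Cep55 is the orange point at 8 Gy, and at 12 Gy Cdc20, Prc1, Melk, Birc5 and Cep55 are orange.

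Unirradiated lung and liver differed for 4 of the 38, where 35.5% of all probes did. Mki67 (lung minus liver 1.45, SE 0.45), Foxm1 (1.14, SE 0.33) and Espl1 (1.79, SE 0.36) were higher in lung, and Cdca3 (-1.06, SE 0.44) was higher in liver. On the joint scale Mki67 was at 10.53 ± 0.90 in lung and 9.08 ± 0.84 in liver (SD, n = 3).

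Of the 38 genes, 19 had 1 probe, and for some of the rest the probes disagreed. The second Birc5 probe was not called in liver and was called in lung from 2 Gy. The 2 further Ccnb1 probes were called in liver at 1 and 3 of the doses and, in lung, 1 of them at 12 Gy. The second probes of Cenpf and Foxm1 were above background on 1 liver array each and on no lung array, and their liver changes, above 0 at all 5 doses, were not called. A second Ttk probe was called lower in lung at 4 Gy (at least 2.02-fold), where the main probe was not, and a second Prc1 probe was called in lung at 4, 8 and 12 Gy. The second probes of Ccna2, Cdca8 and Cdc20 were called lower with the main ones in liver at 8 and 12 Gy.

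Other genes of division gave a context for these counts. The shares of all probes called lower at each dose are given with the mitotic genes above. Of 28 DNA replication genes, 0, 0, 3, 3 and 4 were called lower in liver at the 5 doses and 0, 3, 5, 6 and 5 in lung, with medians from -0.21 to -0.41 and from -0.38 to -0.66. Of 38 further mitotic genes with a tested probe, 0, 1, 6, 11 and 11 were called lower in liver and 0, 5, 11, 13 and 16 in lung, with medians from -0.46 to -0.84 and from -0.61 to -0.93. In lung 1 of these further genes was called higher at 8 Gy and 2 at 12 Gy, where 231 and 1331 of 43979 probes were. No gene of the 11 of the DREAM and MuvB complexes was called at any dose in either tissue. Of 7 Cdk inhibitor genes Cdkn1a, p21, alone was called. It rose by 2.58, 3.34, 4.20, 5.15 and 6.33 (SE 0.24) in liver and by 1.77, 1.87, 2.50, 3.04 and 3.65 (SE 0.20) in lung at 1, 2, 4, 8 Gy and 12 Gy. Between neighbouring doses, where few or no probes were called, Cdkn1a was called at no step in either tissue (adjusted p from 0.128 to 0.978 in limma). From 1 to 12 Gy it rose by 3.75 in liver (adjusted p = 3.67e-06) and by 1.88 in lung (adjusted p = 4.04e-05).

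Markers of B and T cells were also called lower, though none at 1 Gy, while those of other blood cells went different ways. Counts below are at the 5 doses in order, and the shares of all probes called lower are given above. Of 14 B cell markers, 0, 8, 11, 12 and 12 were called lower in lung, and of 13 tested in liver 0, 3, 7, 7 and 7. Of 13 T cell markers, 0, 1, 9, 10 and 12 were called lower in lung, and of 12 tested in liver 0, 0, 1, 4 and 5. Summed over the list, B cell markers in lung were at 63.0, 101 and 136% of the 0 Gy mean in control mice 1, 11 and 21, and at 13.5 to 17.2% at 12 Gy. T cell markers were at 47.7, 64.4 and 188% in the same control lungs and at 13.3 to 19.2% at 12 Gy, so that the control order of the mitotic genes was shared by both lists. In control livers the T cell list read 106, 113 and 80.7%, another order. Blk and Bcl11b were above background on no liver array. Of the erythroid markers, 2 of 9 tested in liver and 4 of 10 in lung were called lower at 12 Gy and none higher. Summed over the list they were at 109 to 126% of the control mean in liver at that dose, with a median change of 0.27, and at 60.4 to 74.2% in lung, with a median change of -0.76. The list held no globin gene, and the study reported Hba and Hbb genes as lower in liver at every dose. Sptb, Kel and Trim10 were above background on no liver array, and Rhag and Klf1 on no lung array. Neutrophil markers summed to 152 to 180% at 8 Gy and 124 to 170% at 12 Gy in liver, and to 131 to 149% in lung at 12 Gy, where 1 was called lower and 1 higher in each tissue. Over all probes at 12 Gy, 1.33% were called lower and 0.73% higher in liver. In lung 4.3% were called lower, and 1331 of 43979 probes higher. Macrophage markers summed to 63.5 to 64.6% in liver and 91.3 to 155% in lung at 12 Gy, with none called in either. Hepatocyte markers in lung had medians of -1.47, 1.03, 0.65, -0.19 and 1.31 at the 5 doses. The part of these cells in the fall of the mitotic genes was not tested.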

How the data were processed

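Liver and lung RNA was labelled in 1 colour and hybridised to Agilent mouse arrays of 56605 probes, 36 arrays in all. The values deposited by the authors were spot intensity values of the scanner software, not yet normalized. From the median intensity and its local background, normexp correction, quantile normalization within a tissue, log2 and averaging of a probe's spots were computed. A probe was tested if at least 0.5 of its spots were well above background on 1 array or more. Dose groups were compared with limma 3.58.1 in R 4.3.3, and the fit was tested on simulated data. RefSeq symbols were matched to 61.1% of probes, and 9009 probes of Ensembl transcripts were not named. Each gene's main probe had the highest mean over 36 arrays. Genes described by mouse were the 1 or 2 brightest in their role, and Plk1, chosen after its values were seen. Of non-members only Cdkn1a was to be named with values. The members and lists were chosen with earlier results of these data known. Other corrections, scalings, filters, dose scales and slide terms, joint normalization and leaving out each mouse were tried. Leave-one-out fits kept the normalized values. No counts exist for arrays, and 3 mice per group limit the precision.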

Additional observations from a re-analysis of the deposited data

Results flagged for a closer look

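In the tests of lung minus liver the following members were called as different between the tissues in their change with dose. Cep55 differed by -1.43 at 8 Gy, -2.04 at 12 Gy and -1.81 in the trend over 12 Gy. Cdc20 differed by 2.75 at 12 Gy and 2.01 in the trend. At 12 Gy Prc1 differed by 2.62, Melk by 2.11 and Birc5 by -1.71. Over all probes, 0.929% differed at 8 Gy, 5.7% at 12 Gy and 7.24% in the trend. Slide and dose cannot be told apart in the 12 Gy lungs, and Prc1 and Melk were above background on no liver array at 12 Gy.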

How the results depend on the processing

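No change of a member reversed in sign where it was called, under any setting tried. The counts called lower moved as follows, and the cause was not tested. The share of all probes called was not counted under these settings, nor with 1 mouse left out. With slide as a term of the model, liver had 1 at 2, 4, 8 and 12 Gy and 0 from 1 to 12 Gy, and the trend had 0 in liver and 0 in lung. With slide as a random block, lung had 0, 10, 16 and 11 at 2, 4, 8 and 12 Gy, 0 from 1 to 12 Gy and 6 in the trend, and liver 0 from 1 to 12 Gy and 2 in the trend. With a normexp offset of 50, liver had 1, 11, 12 and 12 at 1, 4, 8 and 12 Gy, 0 from 1 to 12 Gy and 3 in the trend, and lung 3 at 1 Gy, 1 from 1 to 12 Gy and 6 in the trend. The processed signal gave 2 in liver at 1 Gy, and 75th percentile scaling 5 in the liver trend. The authors' series values gave 1 in liver at 1 Gy, and in lung 7 from 1 to 12 Gy and 17 in the trend. Without a filter, liver had 3 at 2 Gy, 0 from 1 to 12 Gy and 4 in the trend, and with probes above background on all arrays of a group, 15 at 2 Gy in liver and 2 at 1 Gy in lung. Averaged probes gave 0 from 1 to 12 Gy in liver, and log2 of dose plus 1 gave trends of 19 in liver and 22 in lung. Joint normalization gave liver 4 at 1 Gy, 19 at 2 Gy and 2 from 1 to 12 Gy, and lung 3 at 1 Gy. On the slide of the liver controls alone, a choice made after seeing the data, 0 were called at 2 Gy.

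Leaving out 1 mouse gave 0 to 13, 0 to 18, 8 to 25, 13 to 29 and 14 to 28 in liver at 1, 2, 4, 8 Gy and 12 Gy, 0 to 2 from 1 to 12 Gy and 2 to 13 in the trend. In lung it gave 1 to 5, 2 to 24, 15 to 27, 19 to 29 and 15 to 26, 0 to 1 from 8 to 12 Gy, 1 to 4 from 1 to 12 Gy and 8 to 15 in the trend. Differences between tissues ranged from 0 to 1 at 2 Gy, 0 to 1 at 4 Gy, 0 to 2 at 8 Gy, 4 to 8 at 12 Gy, 3 to 7 at 0 Gy and 0 to 3 in the trend. Control mouse 1 gave most of the highest counts and control mice 11 and 21 most of the lowest. With the mouse number as a replicate block, 2 members differed between tissues at 8 Gy and 6 in the trend. Same-numbered liver and lung deviated together with a correlation of at most 0.10, and 7 of 18 correlated best with their own number. Under scaling to the 75th percentile the median change of all probes was 0.13 in liver at 8 Gy (0.005 with quantile normalization), 0.253 in lung at 12 Gy (0.095), 0.211 from 1 to 12 Gy (0.089) and 0.227 in the trend (0.081) in lung, and -0.557 between unirradiated tissues (-0.052). Dim probes in liver limit how far a fall could be seen.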
